A study of Mus musculus with 6 samples.

Results

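The 10 genes described here encode 6 matrix metalloproteinases (Mmp2, Mmp3, Mmp9, Mmp13, Mmp14 and Mmp16) and the 4 tissue inhibitors of metalloproteinases (Timp1, Timp2, Timp3 and Timp4). They were chosen by name, as genes of matrix breakdown, with earlier results of these data known. The choice was made out of 19938 genes with a probe set of their own. All 10 passed the filter on dim signals that left 17020 genes in the test. Each was measured by 1 probe set. RNA came from the growth plate chondrocytes of femurs and tibiae of mice at postnatal day 30, on a mixed FVB, 129S6 and C57CL/6 background, and each sample was hybridised to its own array. The groups are 3 control samples and 3 samples from mice with a conditional Lkb1 mutation. What drives the conditional mutation, the genotype of the controls, and the sex and number of animals per sample are not stated in the labels. The replicates are labelled biological, with no word on separate animals or litters, and the p-values therefore reflect only how much these samples differ among themselves, which may be technical.

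Matrix metalloproteinases are zinc-dependent enzymes that are made as inactive proenzymes and cut collagens, proteoglycans and other matrix proteins outside the cell. TIMPs bind the active site of these enzymes and block it. In the growth plate, collagenase and gelatinase activity at the border of hypertrophic cartilage and bone opens the matrix to vessels and bone-forming cells.

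The mutant label was checked first on Stk11, the current symbol of Lkb1. Its level, as log2(intensity + 1), was 8.68, 9.08 and 9.67 in the controls and 7.39, 7.51 and 7.52 in the mutants, a difference of -1.67 (SE 0.22, limma adjusted p = 0.00387). The mutants lay below each control, by at least 1.16. Where its probes lie relative to the deleted part was not analysed here, and probes outside that part check nothing. Cartilage markers were present at high level in both groups: all 10 of the chondrocyte list, among them Col2a1, Acan and Sox9, exceeded the background on every array, and 0 of 10 passed the limma test (1 at an unadjusted p under 0.05). The background is the 95% point of the olfactory receptor probe sets, which lay between 6.40 and 6.73. The median intensity of an array was 82.4 to 90.5, and the 3 arrays in each group limit the precision. Bone marrow markers set the control arrays apart from each other and from the mutants. The mean over 23 genes of neutrophils, erythroid cells and B lymphocytes was 8.24 for the first control replicate, 8.96 for the second and 9.68 for the third, and 5.74 to 6.03 for the mutants. Of these genes, 9 of 10 neutrophil, 4 of 5 erythroid and 7 of 8 B lymphoid genes fell. Here and below, values of a group are listed in the order of its replicate numbers. In such bulk samples, fewer cells of a type and less RNA per cell cannot be told apart. The Stk11 levels of the controls followed the same order as their marrow means. With control replicates 2 and 3, those with the most marrow signal, left out, the Stk11 difference was -1.21. That fit takes the lone control to vary like the mutants, so only its differences are given here and below. The part of marrow cells in the Stk11 difference was not tested. The plot of differences gives each of the 10 genes without these 2 arrays too.

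Of the 10 genes, 6 were higher in the Lkb1 mutants at a limma adjusted p under 0.05 and 0 were lower; at an unadjusted p under 0.05 the numbers were 6 and 1, the latter being Mmp9. The 6 are Mmp13, Mmp14 and Mmp2 among the proteases and Timp2, Timp3 and Timp4 among the inhibitors. Among all genes tested, 7.84% were called higher, 6.82% lower and 14.7% in either direction. The groups did not overlap for 6 genes that were higher in the mutants and for Mmp9, which was lower. Over all genes tested, 20.0% had all mutants above all controls and 16.7% had them below, 36.7% together. The median difference of the 10 genes was 0.58 on the log2 scale, beside 0.03 for all genes tested. Mmp13, Mmp14 and Timp2 kept their call under each of 15 other settings (other normalisations, filters and variance models, and each array left out). The number of calls was 3 without control replicate 2 and without mutant replicate 3.

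**Figure D1:**
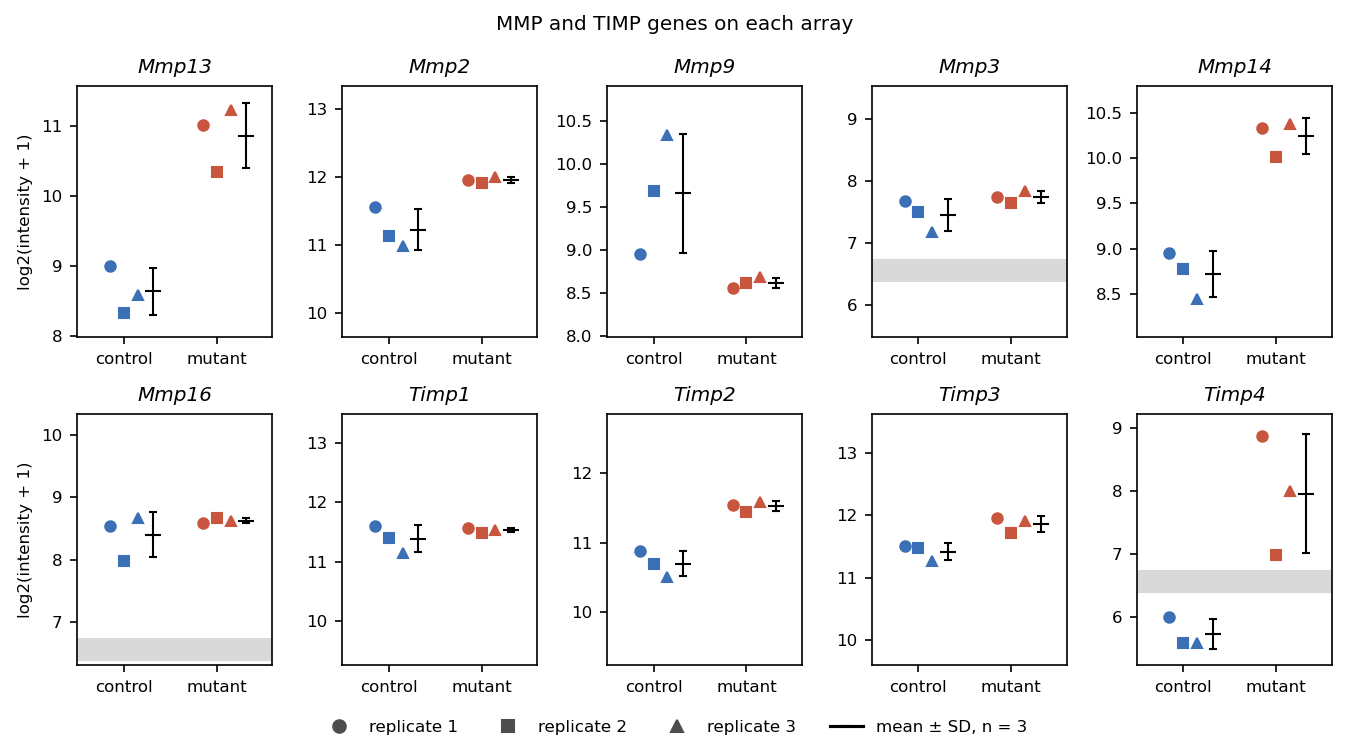
Level of each of the 10 genes on each array as log2(intensity + 1), in a panel per gene with 3 control (blue) and 3 Lkb1 mutant (red) arrays; marker shapes are replicate numbers, black bars the mean ± SD (n = 3), and the grey band the range of the background over the arrays, shown where it falls within the panel. The mutants lie above the controls for Mmp13, Mmp14, Mmp2, Timp2, Timp3 and Timp4 and below them for Mmp9, and the Timp4 controls lie under the band.

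Mmp13 encodes the collagenase of hypertrophic cartilage and bone, which cuts fibrillar collagens including that of cartilage. The controls measured 8.99, 8.33 and 8.58 and the mutants 11.02, 10.34 and 11.22. The lowest mutant lay 1.35 above the highest control on this scale, and mutant replicate 2 was the lowest of its group. The mean rose from 8.63 ± 0.34 to 10.86 ± 0.46 (SD, n = 3 each), 4.68-fold (difference 2.23, SE 0.25, limma adjusted p = 0.00194). Leaving out 1 array at a time gave differences of 2.04 to 2.49, and the difference was 1.87 without control replicates 2 and 3. Hypertrophic chondrocytes and osteoblasts are the usual sources of Mmp13. Of 5 hypertrophic markers 4 fell (Col10a1, Pth1r, Panx3 and Foxa2) and 0 rose, with a list mean of 9.98 to 10.24 in the controls and 9.21 to 9.44 in the mutants. Of 6 osteoblast markers Col1a1 rose and Phex, at background in all mutants, fell, and the list mean was 8.97 to 9.35 in the controls and 9.26 to 9.34 in the mutants. Their part in the Mmp13 difference was not tested.

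The bases before the Mmp13 start are shown because they hold letters of known regulator sites, next to those of Mmp3, a gene of the same cluster, and of Mmp14, which rose too. Each line gives the 250 bases upstream of the RefSeq start, 5′ to 3′ on the strand of the gene, all on the plus strand of GRCm38.p6, at chr9:7272264-7272513 for Mmp13, chr9:7445572-7445821 for Mmp3 and chr14:54431348-54431597 for Mmp14. Capitals mark TGANTCA, the letters bound by AP-1 (Fos and Jun dimers), AACCACA, a form of the letters bound by Runx factors, and TATAAA, the TATA box.
Mmp13: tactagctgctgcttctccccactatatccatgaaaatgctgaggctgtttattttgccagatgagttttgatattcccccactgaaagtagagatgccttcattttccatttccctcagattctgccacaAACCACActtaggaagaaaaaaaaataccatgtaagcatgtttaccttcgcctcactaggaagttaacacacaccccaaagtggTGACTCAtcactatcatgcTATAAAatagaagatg
Mmp3: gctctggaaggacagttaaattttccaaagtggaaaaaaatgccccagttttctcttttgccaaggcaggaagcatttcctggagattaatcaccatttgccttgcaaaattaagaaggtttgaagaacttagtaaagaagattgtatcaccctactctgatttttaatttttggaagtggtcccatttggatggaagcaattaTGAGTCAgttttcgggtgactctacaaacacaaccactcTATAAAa
Mmp14: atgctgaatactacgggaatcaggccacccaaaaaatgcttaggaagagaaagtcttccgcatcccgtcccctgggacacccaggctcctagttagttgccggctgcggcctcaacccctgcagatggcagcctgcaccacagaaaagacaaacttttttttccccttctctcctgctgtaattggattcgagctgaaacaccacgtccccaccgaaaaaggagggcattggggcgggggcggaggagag
Both strands were searched, and the marked places do not overlap. In Mmp13 the AP-1 letters are TGACTCA, 35 to 29 bases before the start, the Runx letters lie 119 to 113 bases before it, and the TATA letters 16 to 11 bases before it. In Mmp3 the AP-1 letters are TGAGTCA, 46 to 40 bases before the start, and the TATA letters end 2 bases before it. The Mmp14 window held none of the 3 motifs as searched. It does hold ACCACA, the Runx letters without their first A, a shorter form that was not searched for in any window. A promoter sequence was found for 7 of the 10 genes, and those of Timp1, Timp2, Timp3 and Timp4 held none of these letters in their 250 bases. Among 32851 RefSeq windows of the same length, 6.75% held TGANTCA, 4.40% AACCACA and 12.4% TATAAA. The AP-1 letters were thus present in a gene that rose (Mmp13) and in Mmp3, which did not pass the test, and the motifs were picked with the Mmp13 sequence in view.

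Of the 2 membrane-bound proteases, Mmp14 was higher in the mutants and Mmp16 did not pass the test. Mmp14 encodes the membrane-type collagenase that also activates the Mmp2 proenzyme. It was measured at 8.95, 8.78 and 8.44 in the controls and at 10.34, 10.01 and 10.38 in the mutants. All mutants lay at least 1.07 above the highest control. The mean rose 2.87-fold, from 8.72 ± 0.26 to 10.24 ± 0.20 (SD, n = 3 each), with a difference of 1.52 (SE 0.16, limma adjusted p = 0.00137) and of 1.29 without control replicates 2 and 3. Mmp16 encodes a related membrane-type enzyme. Its levels were 8.54, 7.99 and 8.67 in the controls and 8.59, 8.66 and 8.62 in the mutants. The groups overlapped, with control replicate 2 alone at the low end, and the difference was 0.23 (95% interval -0.17 to 0.63, limma adjusted p = 0.434).

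Mmp2 and Mmp9 encode the gelatinases, which cut denatured collagen and collagen of basement membranes, and their differences had opposite signs. Mmp2, made mainly by mesenchymal cells, was at 11.56, 11.13 and 10.98 in the controls and at 11.95, 11.91 and 12.00 in the mutants. The mutants lay within 0.09 of each other and above each control, and the controls spread over 0.58. The mean rose 1.66-fold, by 0.73 (SE 0.15, limma adjusted p = 0.0184). The Mmp2 difference was 0.39 without control replicates 2 and 3. Its call ended when control replicate 2 or any 1 mutant array was left out, where the limma adjusted p reached 0.0796. Over the 15 settings the lowest was 5.36e-05, with array weights. The iteration of that fit stopped before convergence, and it called 8006 of 17020 genes.

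Mmp9 is a gene of osteoclasts and neutrophils as well as of the cartilage border. The controls measured 8.96, 9.69 and 10.34, and the mutants 8.56, 8.62 and 8.69. Each mutant lay below each control, by at least 0.27, and the SD was 0.69 among the controls and 0.06 among the mutants. The difference was -1.04 (SE 0.30, limma adjusted p = 0.0594), which did not pass the test. It was -1.40 without control replicate 1 (adjusted p = 0.00282, called) and -0.34 without control replicates 2 and 3. The limma adjusted p of Mmp9 ran from 0.000225 (with array weights) to 0.161 over the 15 settings. Among the controls, Mmp9 was highest on the array with the most marrow signal and lowest on the array with the least. The neutrophil markers averaged 8.95, 9.99 and 10.50 on the control arrays and 5.93 to 6.38 on those of the mutants, in which 2 of 10 neutrophil genes exceeded the background on all arrays. The osteoclast marker mean was 6.77 to 6.93 in the controls and 7.26 to 7.39 in the mutants. Of 8 osteoclast genes, Ctsk rose by 1.30, and Atp6v0d2, at background in all controls, was at least 2.11-fold higher (measured means 6.09 and 7.62, limma adjusted p = 0.00066). Calcr, above background in 1 of 3 controls and in 0 mutants, passed the test as lower (means 6.47 and 6.13, limma adjusted p = 0.0485), with no fold given so near the background. The Calcr call ended whichever array was left out (limma adjusted p of 0.067 to 0.196). Acp5 differed by 0.69 (limma adjusted p = 0.132). Dcstamp and Oscar were at background on all arrays. The part of these cells in the Mmp9 values was not tested.

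**Figure D2:**
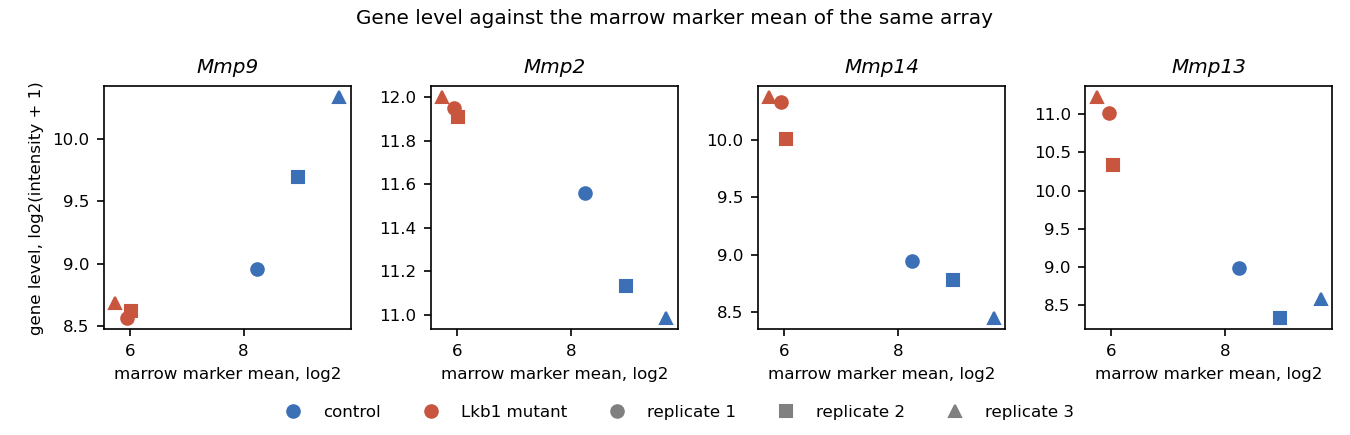
Level of Mmp9, Mmp2, Mmp14 and Mmp13 as log2(intensity + 1) against the mean log2 level of 23 marrow marker genes on the same array, with controls in blue and mutants in red and marker shapes for replicates. Among the 3 controls, Mmp9 was highest and Mmp2 and Mmp14 were lowest on the array with a marrow mean of 9.68, while Mmp13 was lowest on the array at 8.96.

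Mmp3, which encodes stromelysin, a protease of proteoglycans and other matrix proteins that also activates procollagenases, did not pass the test. It was at 7.68, 7.51 and 7.18 in the controls and at 7.75, 7.65 and 7.84 in the mutants. Control replicate 1 lay within the mutant range, and the difference was 0.29 (95% interval -0.03 to 0.61, limma adjusted p = 0.214).

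Of the inhibitors, Timp2, Timp3 and Timp4 rose and Timp1 did not pass the test. Timp2 blocks metalloproteinases and, with Mmp14, forms the surface complex that activates the Mmp2 proenzyme. Its level was 10.87, 10.70 and 10.51 in the controls and 11.55, 11.44 and 11.59 in the mutants. The lowest mutant lay 0.57 above the highest control. The mean rose 1.78-fold (difference 0.83, SE 0.11, limma adjusted p = 0.00415), and the difference was 0.65 without control replicates 2 and 3.

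Timp3 encodes an inhibitor that binds to the matrix and also blocks aggrecan-cleaving ADAMTS enzymes. It was at 11.51, 11.48 and 11.27 in the controls and at 11.96, 11.71 and 11.91 in the mutants, without overlap and with a gap of 0.20. The mean rose 1.36-fold (difference 0.44, SE 0.11, limma adjusted p = 0.0366), the smallest of the called differences. This call ended without control replicate 2, without control replicate 3 and without each mutant replicate, with adjusted p of 0.0554 to 0.142. It also ended with median centring (0.0699). Over the 15 settings the adjusted p ran from 0.0016 (with array weights) to 0.142. Without control replicates 2 and 3 the difference was 0.35.

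Timp4, an inhibitor with a restricted tissue range, went from background to signal. It was at 6.00, 5.59 and 5.59 in the controls, all below background, and at 8.88, 6.99 and 8.003 in the mutants, all above it. The mutants spread widely (SD 0.95), with replicate 1 highest and replicate 2 lowest. Against the background, the mean of the mutants was at least 2.67-fold higher. The difference of the measured means, 5.73 and 7.96, was 2.23 (SE 0.42, limma adjusted p = 0.0130). The call ended without control replicate 2 and without mutant replicate 3, with adjusted p of 0.0552 and 0.0556. Over the 15 settings the adjusted p ran from 0.000258 (with array weights) to 0.0556. The difference was 1.96 without control replicates 2 and 3.

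Timp1, an inhibitor of most metalloproteinases, was at 11.60, 11.40 and 11.15 in the controls and 11.57, 11.49 and 11.54 in the mutants. The mutants lay within the control range, and the difference was 0.15 (95% interval -0.14 to 0.44, limma adjusted p = 0.482). It was -0.07 without control replicates 2 and 3, so its direction is not settled.

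**Figure D3:**
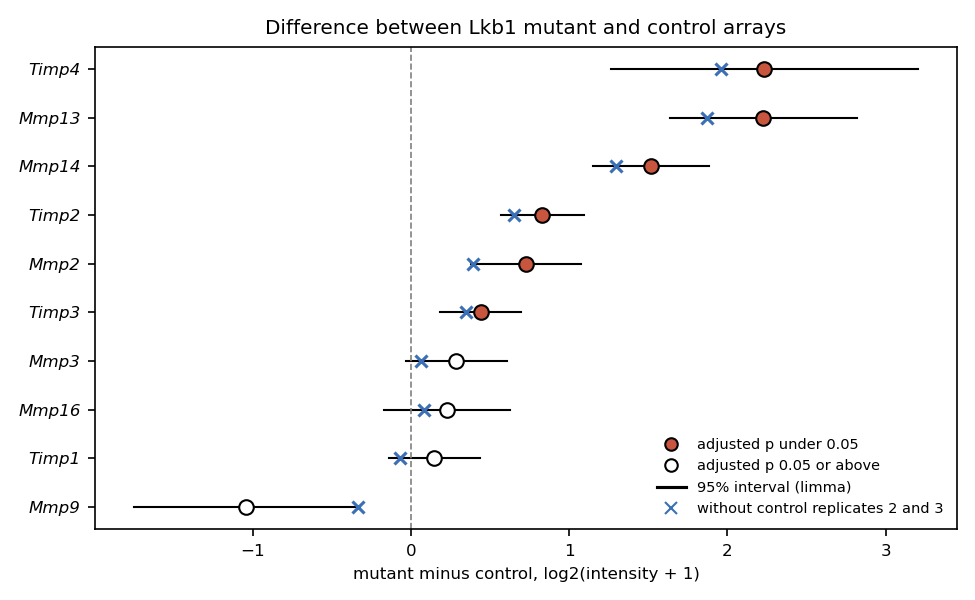
Mutant minus control difference of each of the 10 genes on the log2(intensity + 1) scale (circles, filled for an adjusted p under 0.05), with the 95% interval from limma (lines) and the difference without control replicates 2 and 3 (crosses). The differences run from -1.04 for Mmp9 to 2.23 for Timp4, whose controls are at background, and the cross lies nearer to 0 than the circle for each gene, on the other side of 0 for Timp1.

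Among the controls, 6 of the 10 genes (Mmp2, Mmp3, Mmp14, Timp1, Timp2 and Timp3) were lowest on the array with the most marrow signal, beside 32.8% of all genes tested. Mmp9 and Mmp16 were highest there, beside 44.4%, and Mmp13 and Timp4 lay between the other controls. Markers of fibrous tissue and macrophages were higher in the mutants along with the 6 genes that rose. Of 9 fibrous and tendon genes 5 rose, with a list mean of 9.09 in the controls and 9.97 in the mutants, and of 8 macrophage genes 7 rose, with a list mean of 7.53 and 8.27. Of 8 endothelial genes 6 rose, with a list mean of 6.56 and 7.35. Among these 6, Kdr and Tie1 were at background in all controls. Kdr exceeded the background in 1 mutant, with no fold given so near the background. Tie1 exceeded it in 2 mutants and was at least 1.06-fold higher. Of 6 skeletal muscle genes 2 rose (Myl1 and Actn3), with a list mean of 6.78 and 7.08. Myl1 was at background on all arrays, and Actn3, at background in all controls, was at least 1.12-fold higher. Leaving out a single array could end the calls of Lum, Kdr, Tie1, Cldn5 and Actn3 (limma adjusted p up to 0.137). The same held for each called macrophage gene except C1qb. The part of these cells in the differences was not tested.

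The genes whose pattern lay nearest to each called gene were found by the root mean square difference between log2 profiles over the 6 arrays, each gene centred on its own mean. For Mmp13 these were Itga11, a collagen-binding integrin chain (0.17), Efna5, an ephrin ligand (0.24), and Gask1b (0.25). Itga11 was at 7.06, 6.86 and 6.76 in the controls and at 9.25, 8.72 and 9.27 in the mutants. Mutant replicate 2 was the lowest of its group for Itga11 and for all the genes described here except Mmp9 and Mmp16. Itga11 was picked by its likeness to Mmp13 on these same arrays, so the order they share adds nothing. For Mmp14 they were Tcim (0.07), Gnao1, a G protein subunit (0.08), and Twist1, a transcription factor of mesenchyme (0.09). Mmp2 was nearest to Dact1, Dnajc18 and Chpt1, at 0.05 each. Timp2 was nearest to Scarf2 (0.03), Sdc1, which encodes syndecan-1 (0.04), and Rbms2 (0.04), and Timp3 to Prkd1 (0.03), Chka (0.04) and Zfp623 (0.04). For Timp4 they were Saa2, an acute phase gene (0.24), Cldn10, a claudin (0.30), and Brinp3 (0.31). With 6 arrays in 2 groups, such nearness rests mostly on the size of the group difference.

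Of 64 other genes tied to matrix proteolysis, in 7 lists, 59 had a probe set of their own and 57 were tested. Of these 14 rose and 4 fell, beside 7.84% and 6.82% of all genes tested. The other members of the metalloproteinase family went both ways: of 15 tested, 2 rose and 2 fell, with a median of 0.05. Mmp8, the neutrophil collagenase, was at 9.69, 10.03 and 10.74 in the controls and at 6.36, 5.84 and 5.54, all background, in the mutants. It was thus at least 11.9-fold lower (limma adjusted p = 0.000377). Of the 9 called neutrophil markers, 4 were likewise at background in all mutants, at least 4.10-fold to at least 16.2-fold lower, and the other 5 had differences of -2.87 to -4.29. Mmp25, a membrane-anchored enzyme of leukocytes, fell by 1.04 (SE 0.18, limma adjusted p = 0.0104), with 1 of 3 mutants above background. Mmp23 rose by 1.29 (SE 0.20, limma adjusted p = 0.00693), with 2 of 3 controls above background, and Mmp28, epilysin, by 0.59 (SE 0.10, limma adjusted p = 0.00908). Leaving out mutant replicate 3 raised the adjusted p to 0.0532 for Mmp25 and 0.0538 for Mmp28, the highest over the 15 settings.

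In the cluster of 10 metalloproteinase genes on chromosome 9, in the RefSeq order Mmp13, Mmp12, Mmp1b, Mmp3, Mmp1a, Mmp10, Mmp8, Mmp27, Mmp20 and Mmp7, the calls were Mmp13 (higher) and Mmp8 (lower). Mmp12, the neighbour of Mmp13 and a macrophage elastase, was at background in all controls and above it in 2 of 3 mutants. Its measured means were 5.65 and 6.35 (limma adjusted p = 0.125), both below the background, so no fold is given. Mmp1a, Mmp20 and Mmp7 did not exceed the background on any array, and Mmp1b was left out of the test as too dim.

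Inhibitors other than the TIMPs and receptors that clear collagen or proteases had 4 of 5 tested genes higher and 0 lower, with a median of 0.75. A2m, the plasma protease trap alpha-2-macroglobulin, was at 9.16, 8.76 and 8.34 in the controls and at 10.69, 10.73 and 10.91 in the mutants, and rose 4.07-fold (difference 2.02, SE 0.19, limma adjusted p = 0.00113). Mrc2, the receptor that takes up cut collagen, rose by 0.93 (SE 0.13, limma adjusted p = 0.00448), and Reck, a membrane-anchored inhibitor of metalloproteinases, by 0.75 (SE 0.11, limma adjusted p = 0.00476). Tfpi2, a serine protease inhibitor, rose by 0.47 (limma adjusted p = 0.0247), a call that ended without control replicate 2 and without each mutant replicate (adjusted p up to 0.0949).

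Of 7 genes for activation of proenzymes, Plat, tissue plasminogen activator, rose by 0.62 (SE 0.14, limma adjusted p = 0.0266) and 0 fell, with a median of -0.0009. Its adjusted p reached 0.1001 without mutant replicate 3, and the call also ended without mutant replicate 2, control replicate 2 or control replicate 3. Furin, the convertase that activates Mmp14, differed by -0.19 (limma adjusted p = 0.296), and Plau, urokinase, by 0.68 (limma adjusted p = 0.0803). Of 5 surface anchors and inducers 0 were called by limma (2 at an unadjusted p under 0.05). Itgb3, an integrin chain of osteoclasts and platelets, was at 6.77, 7.89 and 8.32 in the controls and 6.54 to 6.64 in the mutants (difference -1.09, limma adjusted p = 0.0782), and Bsg, a surface protein that induces metalloproteinases, differed by 0.20 (limma adjusted p = 0.132). Among the controls, Itgb3 followed the order of the marrow means. Its adjusted p reached 0.208 over the 15 settings. Its difference was -0.20 without control replicates 2 and 3 and -1.54 without control replicate 1 (adjusted p = 0.000799, called). The part of marrow cells in it was not tested.

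Among 9 matrix substrates 3 rose and 1 fell, with a median of 0.04. Col1a1 and Col1a2, the chains of the collagen of bone and tendon, rose by 1.91 (SE 0.15, limma adjusted p = 0.00052) and 0.77 (SE 0.09), and Col3a1, a collagen of soft connective tissue, by 1.73 (SE 0.19). Col10a1, the short-chain collagen of the hypertrophic zone, fell by 0.50 (SE 0.09, limma adjusted p = 0.0114), with an adjusted p of 0.0539 and 0.0546 without mutant replicates 1 and 2. Col2a1 and Acan, the main substrates in cartilage, differed by 0.04 and -0.03 (limma adjusted p = 0.776 and 0.862).

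Of 11 tested regulators of Mmp13 transcription 2 rose and 1 fell, with a median of 0.19. Fos, an AP-1 subunit, was at 10.46, 10.50 and 10.26 in the controls and at 11.14, 11.17 and 11.11 in the mutants, and rose by 0.74 (SE 0.10, limma adjusted p = 0.00341). Hdac4, a repressor of hypertrophy, rose by 0.35 (limma adjusted p = 0.0336), a call that ended without control replicate 2 and without each mutant replicate (adjusted p up to 0.148). Mef2c, a transcription factor that drives hypertrophy, fell by 0.86 (SE 0.17, limma adjusted p = 0.0172), with an adjusted p of 0.0654 without control replicate 2 and 0.0571 without mutant replicate 3. Runx2 was not analysed here.

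Of 5 ADAM and ADAMTS enzymes known as targets of Timp3, 2 rose and 0 fell, with a median of -0.08. Adamts4, which cuts aggrecan, was at 7.04, 6.68 and 6.45 in the controls and at 8.18, 8.62 and 8.53 in the mutants, and rose by 1.72 (SE 0.18, limma adjusted p = 0.00136). Adam12 rose by 0.83 (SE 0.14, limma adjusted p = 0.01), with 1 of 3 controls above background and an adjusted p of 0.0521 without mutant replicate 3. Adamts5, the other main aggrecanase, had all mutants below all controls, with a difference of -0.71 (limma adjusted p = 0.0604).

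**Figure D4:**
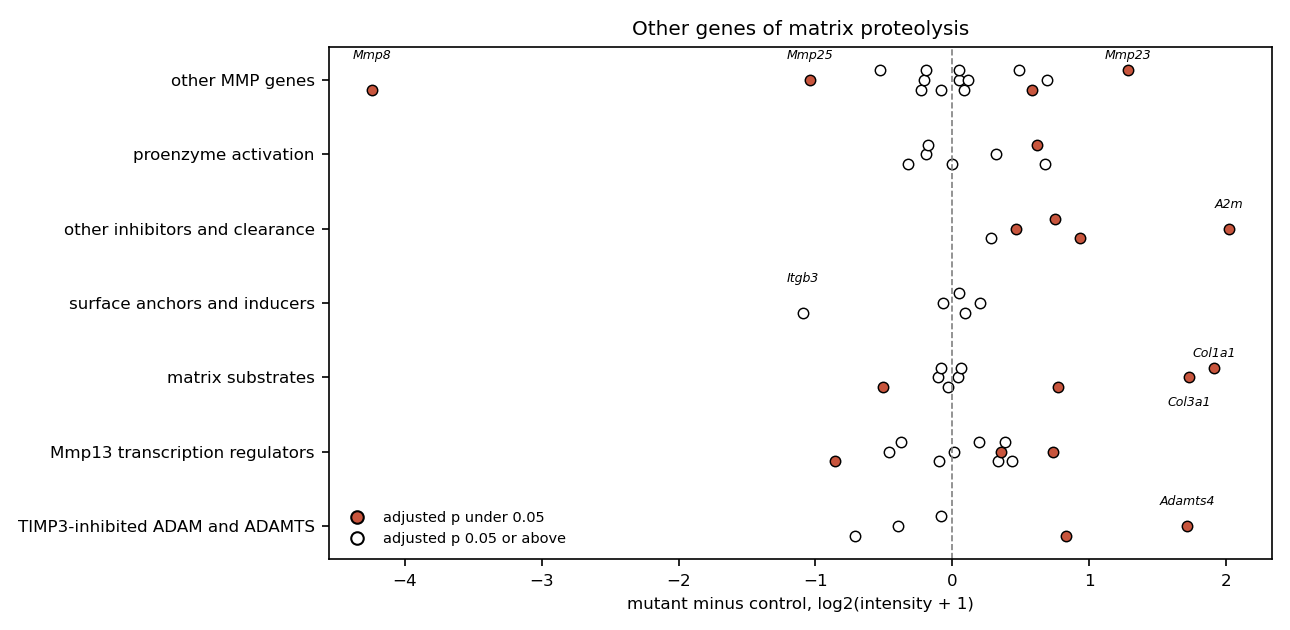
Mutant minus control difference on the log2(intensity + 1) scale of the 57 tested genes of 7 lists tied to matrix proteolysis, a row per list, filled where the adjusted p is under 0.05; named genes past a difference of 1 are labelled. The filled points run from Mmp8, whose mutants are at background, at -4.24 to A2m at 2.02, and 4 of the 5 inhibitor and clearance genes are filled on the positive side.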

How the data were processed

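RNA of 3 control and 3 Lkb1 mutant samples was measured on Affymetrix arrays. The intensities are the authors' deposited values, on a linear scale from 0.74 to 9001. Their probe summary, background correction, normalisation and genome build are not given in the sources used here. Groups and replicate numbers came from the sample titles.

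Of 35512 probe sets, the platform annotation gives 1 gene for 21789, several for 1621 (not used) and none for 12102. Symbols were updated by gene number through RefSeq (GRCm38.p6), where 21698 were found. Values are log2(intensity + 1). Probe sets in the lowest 25% of means (intensity below 46.2) were left out, and the brightest per gene was kept, which gave 17020 genes. Groups were compared by the two-sided moderated test of limma 3.58.1 (R 4.3.3), checked on simulated arrays, with Benjamini-Hochberg adjustment over all 17020 genes and calls at 0.05. The simulated arrays had the same spread in both groups. They therefore do not check the test for genes of unequal spread, such as Mmp9 (SD 0.69 in controls and 0.06 in mutants). An exact permutation test of these group sizes has a smallest p of 0.1 and was not used. The background is the 95% point of 1035 olfactory receptor probe sets per array. A gene below it on all arrays of a group is given as at least N-fold, against the higher of the background and its own value, with no fold where this falls under 1.

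The 10 genes, the 7 lists of related genes, the 11 marker lists and the alternatives were chosen with earlier results of these data known. The text names the 10 genes, Stk11, up to 4 called genes with the largest difference per list of related genes (or the 2 with the smallest p), and the 3 nearest profiles of each called gene. Other genes named were picked with their values known. The alternatives were quantile normalisation, median centring, 2 other filters, the mean of probe sets, a pseudocount of 16, array weights, a variance trend with intensity, a replicate block and leaving out each array. A fit without control replicates 2 and 3 was added after the data were seen. Promoter letters are from RefSeq.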

Additional observations from a re-analysis of the deposited data

How the results depend on the processing

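The number of genes called, 2496, was 8006 with array weights, whose iteration stopped before convergence, and ran from 936 (without mutant replicate 3) to 3282 (without control replicate 1) when an array was left out. Of the 10 genes, 6 were called, with a range of 3 to 7 when an array was left out and 9 with array weights. The fit without control replicates 2 and 3 takes the lone control to vary like the mutants, so only its differences are given. In it the Timp1 difference was -0.069. Among the related genes, that fit gave differences of -0.65 for Mmp25, 0.59 for Plat, 0.32 for Tfpi2, -0.95 for Mef2c and 0.36 for Hdac4. All 10 differences kept their sign under the other 15 settings. Median centring and the replicate block each left 6 calls, 5 of them shared, with Timp3 lost and Mmp9 gained (adjusted p = 0.0352 and 0.0418). The blocked fit called 2031 genes in all and gave an adjusted p of 0.0647 for Timp3 and 0.0732 for Hdac4, and it ended no other call of the genes named from the lists. Same-numbered arrays did not deviate together throughout (r = 0.16, 0.16 and -0.08 across probe sets), so the numbers were not taken as pairs. Each of the 10 genes has 1 probe set, so a comparison of probe sets gave no value. Signal near background limits Timp4, Mmp8, Mmp25, Mmp23, Adamts4 and Adam12.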

Other observations

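Within each array, the ratio of a protease to an inhibitor shows whether both changed alike; the pairs were chosen after the values were seen and are given without a test. The log2 ratio of Mmp14 to Timp2, partners in activating the Mmp2 proenzyme, was 0.54 to 0.76 above the control mean in the 3 mutants, a mean shift of 0.69, while the controls lay within -0.10 to 0.05 of their mean. The ratio of Mmp2 to Timp2 shifted by -0.10, with overlapping groups. The ratio of Mmp13 to Timp1 shifted by 2.08, with all mutants above all controls.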
